A study of Mus musculus with 2 samples.

Results

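Muscle splicing regulators are RNA-binding proteins that choose which exons of muscle transcripts are kept, and 9 genes of this kind were examined by symbol: Rbfox1, Rbfox2, Rbm20, Rbm24, Mbnl1, Mbnl2, Mbnl3, Qk and Ptbp1. They make up 10 of the 30385 entries of the table, because Rbfox1 is listed a second time as Fox1. Transcript 5′ ends of mouse hearts had been sequenced by 5′RNA-seq, in which intact polyA RNA is read without fragmentation. There were 2 libraries, 1 from MHC403/+ mice, which carry a missense mutation in a myosin heavy chain and develop hypertrophic cardiomyopathy, and 1 from wild-type (WT) mice. All mice were of strain 129/SvEv, aged 8 to 16 weeks, and all had received subcutaneous CsA, the calcineurin inhibitor cyclosporine A, at 15 mg/kg for 2 weeks, with 2 injections a day. Biological replicates were pooled within each genotype, the pool size is not known, and no library came from mice without the drug. No difference below therefore has a replicate check, and no test between genotypes was made.

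During heart development these proteins move the transcripts of sarcomere, calcium-handling and cytoskeletal genes from fetal to adult isoforms. Rbfox proteins bind the sequence UGCAUG and promote or block an exon depending on the side on which they bind. Mbnl proteins favour adult exons, Celf proteins oppose them on part of the same exons, and Ptbp1 binds pyrimidine-rich tracts and mostly blocks muscle exons. Reads are given per gene, with no exon detail, so the splicing that these proteins control was not measured.

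The libraries held 5468677 reads in MHC403 and 5481123 in WT. Each ratio divides the MHC403 level by the WT level, both scaled to these totals. Ranges in parentheses are 95% Clopper-Pearson intervals, which cover counting error only and leave out amplification, pooling and animal-to-animal variation. Levels are RPM, reads scaled to a common total over all listed entries. They are compared for 1 gene between libraries and not between genes, since it was not tested whether transcripts of different genes are captured equally. An entry is called measured when its higher library holds 50 reads or more, which held for 9507 entries, and counts as higher or lower when its ratio is past 2-fold. The median measured entry had a ratio of 1.48 (log2 0.57), and mitochondrially encoded entries took 13.7% of MHC403 reads and 29.5% of WT reads. Median-of-ratios scaling lowers every log2 ratio by 0.55, a shift that matters for the smaller differences below.

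Of the 9 genes, 8 were measured. Rbfox1 was lower in the MHC403 library, Ptbp1 was higher, and Rbfox2, Rbm20, Rbm24, Mbnl1, Mbnl2 and Qk were within 2-fold. Over all measured entries 26.1% were at least 2-fold higher and 2.43% at least 2-fold lower, so 1 of 8 in either direction is too small a count to read against that background. The median log2 ratio of the 8 genes was 0.38, which is 0.19 below the median of all measured entries. With median-of-ratios scaling Rbfox1 alone passed 2-fold and Ptbp1 did not, against 10.9% of all measured entries higher and 7.59% lower, and the median of the 8 was -0.17. In that scaling the signs of Rbm24, Qk and Mbnl1 turned from higher to lower.

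**Figure D1:**
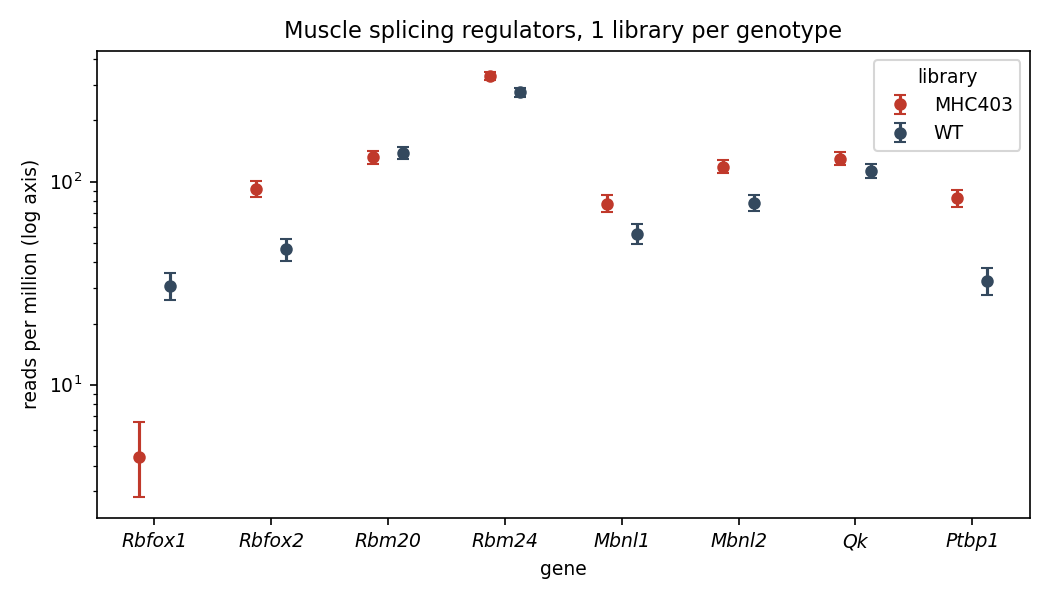
RPM (log axis) of the 8 measured splicing regulators in the MHC403 library (red, left of each pair) and the WT library (dark, right), with exact Poisson 95% intervals as bars. Rbfox1 stands at 4.39 RPM in MHC403 against 30.7 in WT, and Ptbp1 at 82.7 against 32.3. The intervals of the libraries overlap for Rbm20 and for Qk.

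**Figure D2:**
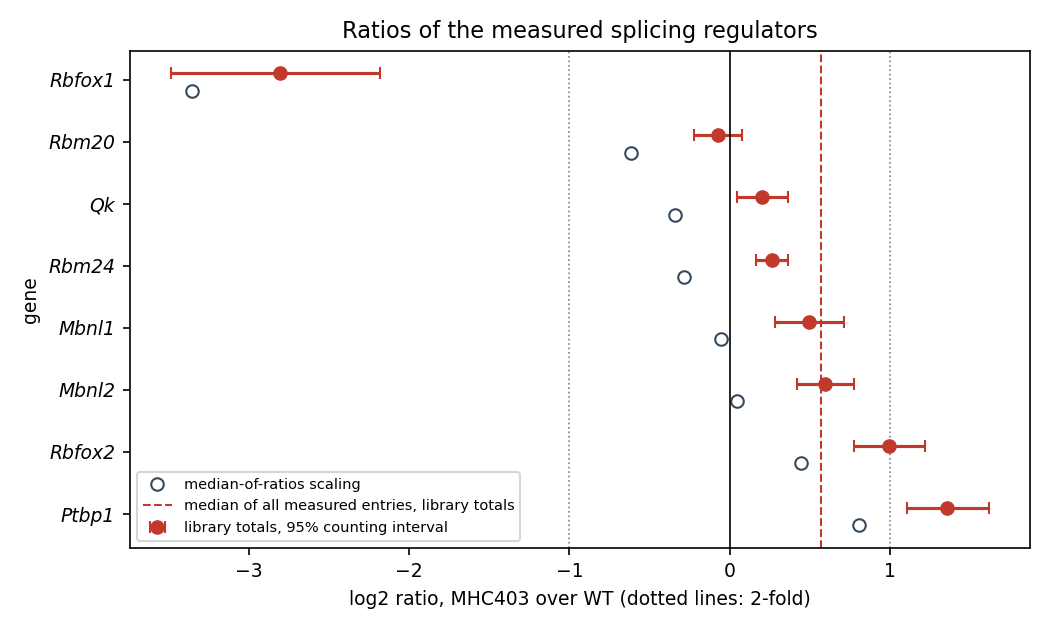
Log2 ratio of MHC403 over WT for each measured gene. Filled points are ratios on library totals with 95% counting intervals, open points use median-of-ratios scaling, the dashed line is the median of all measured entries at 0.57 and the dotted lines mark 2-fold. Rbfox1 lies at -2.80 and Ptbp1 at 1.36, and the interval of Rbfox2 holds 2-fold.

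Rbfox1, the family member found mainly in neurons, heart and skeletal muscle, had 24 reads in the MHC403 library and 168 in the WT library, or 4.39 RPM against 30.7. It was 6.98-fold (4.54 to 11.2) lower. Only 8 of the 9507 measured entries had a ratio this low or lower, and the overlapping entries Rbfox1 and Fox1 are 2 of these 8. Rbfox1 met the minimum of 50 reads through the WT library alone, so this rank is a description and not a test. Rbfox1 spans chromosome 16, 5884886 to 7412573 on the plus strand of mm9, with annotated starts at 5884886, 6349129 and 7069928. Fox1 spans 6173698 to 7412573 with starts at 6173698 and 7069928, so that the entries share the last start, and both carry the same 24 and 168 reads. Another entry within the Rbfox1 span, AK018984, had 0 reads in both libraries. With equal counts, the Rbfox1 entry holds no more reads than Fox1, whose span leaves out the start at 5884886. Reads are given per entry, and those of single starts were not analysed here. With fewer than 50 reads in MHC403 the size of this ratio is the least precise among the 8 genes, and the entry drops out at a minimum of 200 reads. In heart tissue, fewer cells that express Rbfox1 and less of its RNA per cell cannot be told apart.

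The windows upstream of Rbfox1 starts are shown because Rbfox1 has the lowest ratio of the members and its entries differ in their starts. The start at 5884886 lies outside the span of Fox1, which carries the same reads, so no reads are shown to come from it. RefSeq lists starts of Rbfox1 that lie 1185042 bases apart on GRCm38.p6, and the first and last starts in the table on mm9 lie the same 1185042 bases apart. Below are the 250 bases before each of these, 5′ to 3′ on the plus strand, at chr16:7069585-7069834 for the start that both entries share and at chr16:5884543-5884792 for the start of the Rbfox1 entry only. Capitals mark matches on either strand to the TATA box (TATAAA), the CCAAT box, the Sp1-type GC box (GGGCGG), the E-box (CANNTG) or the M-CAT element (CATTCC), and no match overlapped another.
Rbfox1 shared start: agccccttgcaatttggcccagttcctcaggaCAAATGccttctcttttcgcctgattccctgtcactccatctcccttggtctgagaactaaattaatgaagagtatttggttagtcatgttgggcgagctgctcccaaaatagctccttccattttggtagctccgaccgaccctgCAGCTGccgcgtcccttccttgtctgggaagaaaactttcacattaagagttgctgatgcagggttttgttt
Rbfox1 upstream start: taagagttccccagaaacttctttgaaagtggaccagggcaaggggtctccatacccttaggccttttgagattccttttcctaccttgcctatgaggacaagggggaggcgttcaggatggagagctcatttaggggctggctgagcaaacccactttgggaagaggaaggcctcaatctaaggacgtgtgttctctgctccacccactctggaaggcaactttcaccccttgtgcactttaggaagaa
The shared start has 2 E-box matches and none of the other motifs, and the upstream start has no match at all. Among 32851 RefSeq promoter windows of this length 66.2% hold an E-box match, 33.8% a CCAAT box, 32.7% a GC box, 12.4% a TATA box and 12.6% an M-CAT element. The GC content was 48.4% at the shared start and 51.2% at the upstream start, against a median of 52.4% over all windows. A match is a string of letters, not a site shown to be bound.

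Rbfox2, the broadly expressed relative that binds the same RNA motif, had a ratio on the other side of 1. It had 504 reads in MHC403 and 254 in WT, or 92.2 RPM against 46.3, a ratio of 1.99 (1.71 to 2.32) just short of 2-fold. Relative to the median of all measured entries its log2 ratio was 0.42. The entry Rbm9 (an older name of Rbfox2 in RefSeq) lies within the Rbfox2 span on chromosome 15, 76909420 to 77137483 on the minus strand, and starts at 76984242, the more downstream of the annotated Rbfox2 starts. Rbm9 was looked up after the members' values were seen. It had 66 reads in MHC403 and 23 in WT, a ratio of 2.88 (1.77 to 4.85). Taking all of these off leaves 438 reads for Rbfox2 in MHC403 and 231 in WT, a ratio of 1.90 (1.62 to 2.24). The entry AK007154 also overlaps Rbfox2, on the opposite strand, and its reads were not taken off.

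Set against each other, the Rbfox genes showed a difference that no scaling can alter. The MHC403 library held 21 Rbfox2 reads for each Rbfox1 read and the WT library 1.51, a 13.9-fold (8.73 to 22.8) difference. Rbfox1 took 4.55% (exact interval 2.93 to 6.69) of the reads of both genes in MHC403 and 39.8% (35.1 to 44.7) in WT. The sum of both genes was 528 reads in MHC403 and 422 in WT, a ratio of 1.25 (1.10 to 1.43) with library totals. Whether read number depends on transcript length in this assay was not tested, and any such effect is taken to be the same in both libraries.

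**Figure D3:**
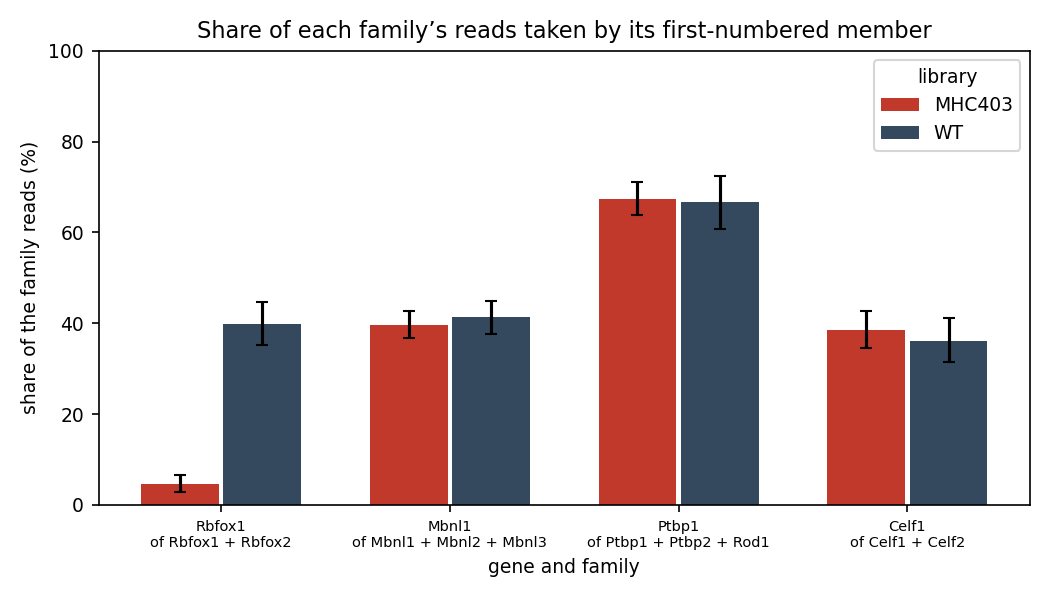
Share of a family's reads taken by its first-numbered member, in per cent, for the MHC403 library (red, left bar) and the WT library (dark, right bar), with exact binomial 95% intervals. Rbfox1 takes 4.55% of the Rbfox1 and Rbfox2 reads in MHC403 against 39.8% in WT, while the intervals of the libraries overlap for Mbnl1, Ptbp1 and Celf1.

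Rbm20 and Rbm24, which act mainly in striated muscle, were both close to a ratio of 1. Rbm20 represses exons of titin and other sarcomere and calcium-handling transcripts, and its mutations cause dilated cardiomyopathy in humans. It had 720 reads in MHC403 and 758 in WT, or 132 RPM against 138, and its ratio of 0.952 (0.859 to 1.06) includes 1. Rbm24, an activator of muscle exons needed for sarcomere assembly in the mouse heart, had 1807 reads in MHC403 and 1507 in WT, or 330.4 RPM against 275. These were the largest read counts of the group, and they give the narrowest interval, a ratio of 1.20 (1.12 to 1.29). With median-of-ratios scaling the log2 ratio of Rbm20 was -0.62 and that of Rbm24 -0.28. Relative to the median of all measured entries Rbm20 stood 0.64 and Rbm24 0.30 lower on the log2 scale. Rbm20 lies on chromosome 19, 53751796 to 53941570, and Rbm24 on chromosome 13, 46513669 to 46526468, and no other listed entry overlaps them.

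The ratios of Mbnl1 and Mbnl2, the measured muscleblind genes, did not differ from each other beyond counting error (0.933 for Mbnl1 over Mbnl2, 0.767 to 1.13). Mbnl1, which drives the switch to adult exons and is sequestered by repeat RNA in myotonic dystrophy, had 426 reads in MHC403 and 303 in WT, or 77.9 RPM against 55.3, a ratio of 1.41 (1.21 to 1.64). Mbnl2, a relative with partly shared targets, had 648 reads in MHC403 and 430 in WT, or 118 RPM against 78.5, a ratio of 1.51 (1.33 to 1.71). Mbnl2 lies on chromosome 14, 120674891 to 120830920, and no other listed entry overlaps it. Both log2 ratios lie within 0.1 of the median of all measured entries, Mbnl1 at -0.07 and Mbnl2 at 0.03 from it. Mbnl1 took 39.7% (36.7 to 42.7) of all Mbnl reads in MHC403 and 41.3% (37.7 to 44.9) in WT. Mbnl3, the member seen mostly in fetal and regenerating muscle, had 0 reads in MHC403 and 1 in WT. The limit that a count of 0 allows, 3 counts, is 0.549 RPM in MHC403, so Mbnl3 was not detectable at this depth and no ratio is given. The entry mKIAA0428 begins at 60305174, the second of the annotated Mbnl1 starts, within the Mbnl1 span on chromosome 3, 60277032 to 60433670. It was looked up after the values were seen and had 220 reads in MHC403 and 177 in WT. Without these reads Mbnl1 would have 206 reads in MHC403 and 126 in WT, a ratio of 1.64 (1.31 to 2.06).

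Qk, or quaking, a STAR-domain protein that regulates exons during muscle differentiation, had 709 reads in MHC403 and 617 in WT, or 129.6 RPM against 113. Its ratio of 1.15 (1.03 to 1.29) has an interval just above 1, and its log2 ratio was -0.34 with median-of-ratios scaling. It lies on chromosome 17, 10399336 to 10512226.

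Ptbp1, the polypyrimidine tract-binding protein, whose level normally falls as muscle matures, had 452 reads in MHC403 and 177 in WT, or 82.7 RPM against 32.3. It was 2.56-fold (2.15 to 3.06) higher, and its interval lies wholly above 2-fold with library totals. Its log2 ratio was 0.79 above the median of all measured entries and 0.81 with median-of-ratios scaling, under 2-fold. Ptbp1 lies on chromosome 10, 79317350 to 79327178, and its start is overlapped on the opposite strand by E130317F20Rik, with 99 reads in MHC403 and 32 in WT, and by AK148204, with 41 in MHC403 and 7 in WT. These neighbours overlap each other and were looked up after the values were seen, and BC005764 overlaps the other end of Ptbp1. No source used here says whether strand entered the counting, so reads at this start cannot be assigned with certainty. If all reads of both neighbours are taken off, Ptbp1 has 312 reads in MHC403 and 138 in WT, a ratio of 2.27 (1.85 to 2.79). The 250 bases before its RefSeq start, chr10:79854182-79854431 on the plus strand of GRCm38.p6, are shown for comparison with those of Rbfox1, with capitals as before.
Ptbp1: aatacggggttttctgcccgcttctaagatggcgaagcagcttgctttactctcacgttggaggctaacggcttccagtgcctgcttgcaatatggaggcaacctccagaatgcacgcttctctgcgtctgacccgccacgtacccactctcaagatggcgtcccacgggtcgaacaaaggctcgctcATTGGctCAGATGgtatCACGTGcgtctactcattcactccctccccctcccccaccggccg
They hold 2 E-box matches and 1 CCAAT match on the opposite strand, with a GC content of 57.6%.

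The relatives of Ptbp1 had higher ratios as well. Ptbp2, known mainly from neurons, had 98 reads in MHC403 and 33 in WT, a ratio of 2.98 (1.99 to 4.56), and Rod1 (Ptbp3 in RefSeq) had 120 in MHC403 and 55 in WT, a ratio of 2.19 (1.58 to 3.07). The family summed to 670 reads in MHC403 and 265 in WT, a ratio of 2.53 (2.19 to 2.93). Ptbp1 took 67.5% (63.8 to 71.0) of these reads in MHC403 and 66.8% (60.8 to 72.4) in WT. With median-of-ratios scaling the log2 ratio was 1.03 for Ptbp2, 0.81 for Ptbp1 and 0.58 for Rod1. Ptbp2 alone thus stayed past 2-fold, by a small margin and with only 33 reads in WT. The counting intervals of the ratios of these genes overlap, so this does not set Ptbp2 apart from the others.

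A comparison of ratios between members removes the choice of scaling. Ordered from low to high the genes ran Rbfox1, Rbm20, Qk, Rbm24, Mbnl1, Mbnl2, Rbfox2 and Ptbp1. For each of the 28 pairs the ratio of ratios was given an exact conditional 95% interval, with no adjustment for the number of pairs. The interval left out 1 in 25 pairs, and in all 7 pairs with Rbfox1. The pairs reuse the same genes, and the share among pairs of other entries was not computed. These counts are therefore not a result about the members. The 3 pairs whose interval held 1 were neighbours in this order: Qk with Rbm24, Rbm24 with Mbnl1, and Mbnl1 with Mbnl2. The step from Rbfox1 to Rbm20 was 6.65-fold (4.25 to 10.8), that from Rbm20 to Qk 1.21-fold (1.04 to 1.41), that from Mbnl2 to Rbfox2 1.32-fold (1.08 to 1.61), and that from Rbfox2 to Ptbp1 1.29-fold (1.02 to 1.63). In reads, Rbm20 exceeded Ptbp1 by 1.59 to 1 in MHC403 and by 4.28 to 1 in WT.

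The authors' deposited table also holds a p-value and a start-site score per gene. No source used here gives the test or the formula, and both compare the pooled libraries and not animals. In the authors' deposited table the p-value was 5.65e-28 for Rbfox1, 5.72e-29 for Ptbp1, 3.93e-20 for Rbfox2, 0.345 for Rbm20 and 0.0102 for Qk. The authors' deposited table gives a start-site score above 0 for Rbm20 (17), Ptbp1 (11) and Mbnl1 (5) and of 0 for the other members. Of the 3641 entries scored above 0, 998 had at least the score of Rbm20.

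Other splicing regulators with tissue-biased roles were counted in the same way. Of 35 genes listed, 33 were in the table and 22 were measured, of which 3 were higher (Ptbp2, Rod1 and Rbpms2), none was lower and 19 were within 2-fold, beside 26.1% higher and 2.43% lower over all measured entries. Their median log2 ratio was 0.30, against 0.57 for all measured entries. Rbpms2, an RNA-binding protein of muscle, had 379 reads in MHC403 and 189 in WT, a ratio of 2.01 (1.68 to 2.41), and it overlaps an entry of the related Rbpms. Raver1, a partner of Ptbp1, had a ratio of 1.79 (1.59 to 2.03), though it overlaps Fdx1l and Zglp1, and Khdrbs1, or Sam68, had a ratio of 1.68 (1.38 to 2.05). Celf1, the best known opponent of Mbnl1, had 224 reads in MHC403 and 142 in WT, a ratio of 1.58 (1.28 to 1.97). Celf1 took 38.6% (34.6 to 42.6) of the Celf1 and Celf2 reads in MHC403 and 36.1% (31.4 to 41.1) in WT. Rbfox3, the neuronal Rbfox gene, had 0 reads in both libraries, and Celf3, Celf4, Celf5 and Celf6 had no more than 8 reads in either.

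Rbfox proteins act in a large assembly of splicing regulators, the LASR complex. All 8 of its listed subunits were measured, and none was 2-fold higher or lower, a count too small to read against the 26.1% higher and 2.43% lower of all measured entries. Their median log2 ratio was 0.37. Among those named here, Ilf2 was at 1.67 (1.25 to 2.26), Hnrnpul2 at 1.47 (1.33 to 1.62) and the helicase Ddx5 at 1.40 (1.31 to 1.49). The RNA-binding hnRNP proteins Hnrnpm and Hnrnph1 were at 1.19 (1.06 to 1.33) and 1.20 (1.05 to 1.36). Ddx5, Hnrnpm and Hnrnph1 each overlap another entry on the same strand, and Ilf2 overlaps entries on the opposite strand, so their reads are uncertain.

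Genes known as splicing targets of these regulators, not all of them specific to muscle, differed among themselves in their ratios. Of 36 listed, 35 were in the table and 33 were measured, with 10 higher, 2 lower and 21 within 2-fold, and a median log2 ratio of 0.46. The count higher is near the share over all measured entries, 26.1%, and that lower, beside 2.43%, rests on 2 genes, so neither is a result about the targets. Titin, Ttn, the best known target of Rbm20, had 10697 reads in MHC403 and 10604 in WT, a ratio of 1.01, and the calcium release channel Ryr2, another target, also had a ratio of 1.01. Both were chosen after their values were seen. The largest differences were in the reticulon Rtn4, an endoplasmic reticulum membrane protein, at 18.8-fold (15.7 to 22.7) higher, and fibronectin, Fn1, at 13.7-fold (11.5 to 16.3) higher, and both overlap entries on the opposite strand. The actin crosslinker Actn1 was 8.86-fold (7.04 to 11.3) higher, the Z-disc protein Pdlim3 6.17-fold (5.07 to 7.55), the actin regulator Enah 4.66-fold (4.12 to 5.28) and filamin A, Flna, 2.76-fold (2.45 to 3.10). The 2 lower genes were 2310046A06Rik (Mlip in RefSeq), 2.02-fold (1.57 to 2.61) lower, and the fast muscle calcium pump Atp2a1, 2.56-fold (1.56 to 4.34) lower with 23 reads in MHC403 and 59 in WT, also named after their values were seen. In median-of-ratios scaling, 5 of the 33 targets were higher and 3 lower, near the 10.9% higher and 7.59% lower of all measured entries.

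**Figure D4:**
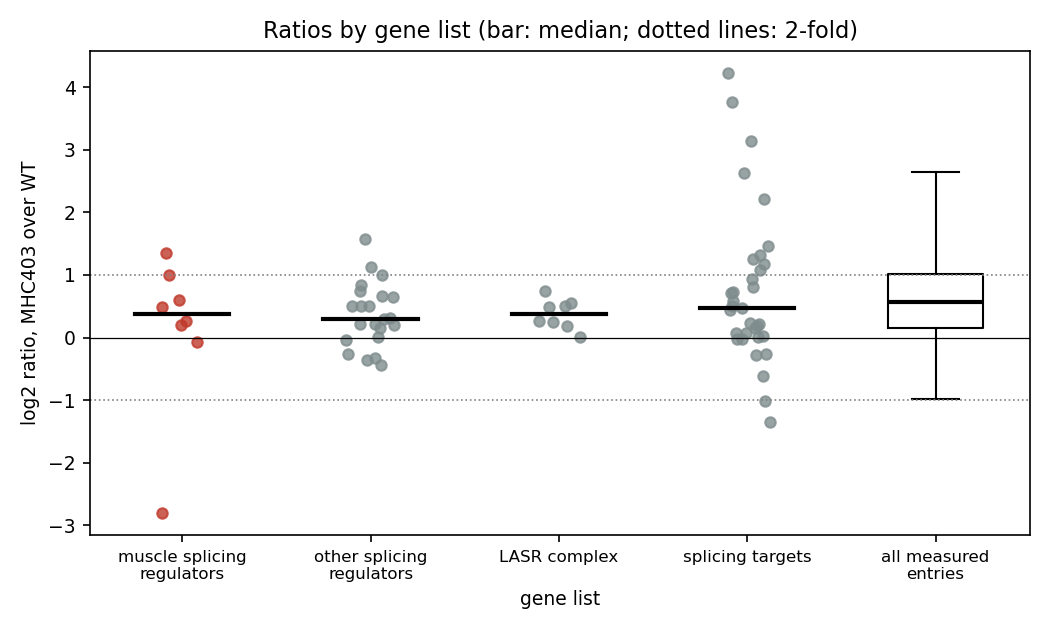
Log2 ratios of MHC403 over WT for measured genes of each list (1 point per gene, bar at the median, dotted lines at 2-fold), and for all measured entries with reads in both libraries as a box of quartiles with whiskers over the central 95%. The medians of the 4 lists lie between 0.30 and 0.46, and Rbfox1 is the lowest point of any list at -2.80.

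Cell type markers differed between the libraries and stand beside the values of Rbfox1 and Ptbp1. Ventricular myocyte markers summed to 28273 RPM in MHC403 and 53208 in WT, a sum 1.88-fold lower. At least 2-fold lower were 2 of 6 genes, Myl2 (36100 reads in MHC403, 86531 in WT) and Myh6 (55171 in MHC403, 132965 in WT). Myh6 encodes a myosin heavy chain, the kind of protein mutated in MHC403/+ mice. Whether the sum measures myocyte content was not tested. Actc1, cardiac actin, went against the sum, with 30038 reads in MHC403 and 16307 in WT. Fibroblast markers summed to 3212 RPM in MHC403 and 459 in WT, with 6 of 7 higher, and macrophage markers to 291 RPM in MHC403 and 94.5 in WT, with all 6 higher. Endothelial markers summed to 466 RPM in MHC403 and 367 in WT, with none of 6 past 2-fold, and smooth muscle and pericyte markers to 411 RPM in MHC403 and 278 in WT, with 2 of 5 measured genes higher. Skeletal muscle markers summed to 1349 RPM in MHC403 and 2505 in WT, with 3 of 4 measured genes lower. Most of that sum came from the ventricular marker Ckm, with 7066 reads in MHC403 and 12865 in WT. Tnnt3, under the minimum, went the other way, with 24 reads in MHC403 and 1 in WT. Erythroid markers summed to 238 RPM in MHC403 and 111 in WT, with 1 of 2 measured higher. Over all measured entries 26.1% were at least 2-fold higher and 2.43% at least 2-fold lower, and each marker list holds few genes. Atrial markers summed to 16989 RPM in MHC403 and 559 in WT, a difference carried by Nppa, the natriuretic peptide gene, with 92851 reads in MHC403 and 3017 in WT. The other atrial markers were under the minimum, Myl7 with 31 reads in MHC403 and 27 in WT, Myl4 with 24 in MHC403 and 19 in WT, and Sln with 2 in MHC403 and 3 in WT. Lymphocyte markers summed to 4.94 RPM in MHC403 and 2.55 in WT, Schwann cell and neuron markers to 12.3 RPM in MHC403 and 2.92 in WT, and proliferating cell markers to 9.69 RPM in MHC403 and 0.912 in WT, with no gene of these 3 lists measured. Markers at 0 included Cd3g and Snap25 in MHC403, and Cd79a, Snap25, Tubb3, Ccnb1 and Cdk1 in WT. The part of these differences in the ratios of Rbfox1 and Ptbp1 was not tested.

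By level in both libraries, the measured entries most like Rbfox1 were Kcnip2, an accessory protein of voltage-gated potassium channels, with 29 reads in MHC403 and 169 in WT, the phosphatase gene Pdp2, with 28 in MHC403 and 131 in WT, and A530016L24Rik, with 29 in MHC403 and 131 in WT. Likeness was the distance in log2 RPM over the 2 libraries, 0.27 for Kcnip2, 0.42 for Pdp2 and 0.45 for A530016L24Rik. It rests on 2 values per gene.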

How the data were processed

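Heart RNA of MHC403/+ and WT mice, pooled to 1 library per genotype, was compared. Trizol was used for extraction, per the labels' protocols, and polyA RNA was size-selected and linearly amplified. TopHat 1.0.14 and mm9 are named in the submitters' processing notes, and no source used here names the counting program. Read counts for each gene were deposited, per the file headers. The authors also deposited RPM, which recomputed from the counts with a largest difference of 4.94e-06, the fold of MHC403 over WT as a ratio, a p-value and a start-site score. Among 196 pairs of entries with identical windows around their starts and at least 50 reads in a library, 40 had identical counts, so the counts are not those of the windows alone.

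Ratios, exact intervals and figures were computed with Python 3.11.15, scipy 1.17.1 and matplotlib 3.10.9, and TMM factors with edgeR 4.0.16. Intervals were tried on simulated Poisson counts, which meet the assumption of the intervals by design. That trial checks the computation only, and not amplification, pooling or animal-to-animal variation. With 50 reads in both libraries, equal levels have interval bounds of 0.662 and 1.51. Named genes were all members, the 6 measured genes of each further list whose interval lay farthest from 1, and the 3 entries nearest to Rbfox1 in level. Rbm4b, Rbpms, Camk2g and Hba-a1 were not analysed here, and single values of some listed genes are not reported here. The members and lists were chosen with earlier results of these data known. Alternatives were other scalings, read minima of 20 and 200, the interval bound in place of the point estimate, and positions counted once. Sequences are RefSeq's on GRCm38.p6, where 7 of the 9 genes had a window.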

Additional observations from a re-analysis of the deposited data

How the results depend on the processing

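Median-of-ratios and TMM scaling gave nearly the same values. Under them 0 of 8 members were at least 2-fold higher, the member median was -0.17 with either, the other regulators had 1 higher and medians of -0.24 with either, the LASR medians were -0.18 and -0.17, and the splicing targets had 5 higher and medians of -0.0827 and -0.0806. All entries had 1034 and 1040 higher, 722 and 718 lower, and medians of 0.0218 and 0.024. Totals without mitochondrial entries gave a member median of 0.0866, 1 other regulator higher, a LASR median of 0.0771, a target median of 0.17, and 1528 entries higher and 400 lower. Among the measured members Rbfox1 stayed past 2-fold under each of these scalings, Ptbp1 only with the totals without mitochondrial entries, at 1.06. In those totals Rbm24 and Qk changed sign, to -0.03 and -0.09.

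A minimum of 200 reads kept 7 members, 10 other regulators, 27 targets and 3998 entries. It left out Rbfox1, so that 0 members were lower, and gave 1 other regulator higher and 0 targets lower. Of the 3998 entries, 989 were higher and 100 lower. A minimum of 20 reads kept 12325 entries, of which 357 were lower. With the interval bound past 2-fold, 0 other regulators were higher, 0 targets lower, 1201 entries higher and 99 lower, while Ptbp1 and Rbfox1 kept their side. Counting positions once kept every count of all entries within 1.5 times. Taking off mKIAA0428 moved the log2 ratio of Mbnl1 to 0.71, an alternative added after seeing the data, as were those for Rbfox2 and Ptbp1, at 0.93 and 1.18. The causes were not tested.

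A floor of 1 count gave no value, because Mbnl3 had at most 1 read in each library. No paired analysis was possible because each genotype has 1 library. Depth limits Rbfox1 (24 reads in MHC403) and Mbnl3 most.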

Other observations

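Entries that share all of their windows did not always share their reads. Of 237 same-strand pairs with at least 50 reads in a library and in which the windows of 1 entry lie within those of another, 205 had reads no higher in the inner entry in both libraries. Of 196 such pairs with identical windows, 40 had identical reads. The cause was not tested.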
